A study of Mus musculus with 4 samples.

Results

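Epithelial-mesenchymal transition factors and cadherins were followed in a mouse mammary epithelial line: the transcription factor genes Trp63, Snai1, Snai2, Zeb1, Zeb2 and Twist1, the cadherin genes Cdh1, Cdh2 and Cdh3, and the intermediate filament gene Vim. They were chosen by gene symbol in the array annotation, which gave 10 of 18194 named genes and 25 of 45101 probe sets. Each gene was read by its probe set of highest mean, called its main probe set, and the others were used as a check within the same RNA. Comma D beta is a line of mouse mammary epithelial cells, cultured here with EGF (10 ng/ml), insulin (5 ug/ml) and 2% serum. Cells received doxycycline (dox) at 100 ng/ml for 1 day or were left untreated, and were then sorted by surface Sca1 into Sca1+ and Sca1- fractions of 200k cells each. This gives 4 groups, each fraction with and without dox, and 1 Affymetrix array per group. What dox switches on in this line is not stated in the labels; the series title names Bcl11b, a zinc-finger transcription factor. Whether the fractions of a treatment came from the same flask is not given either.

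In an epithelial-mesenchymal transition, epithelial cells loosen their contacts and take on features of mobile cells. Factors of the Snail, Zeb and Twist families bind E-box motifs in DNA and are known as repressors of Cdh1, whose product E-cadherin holds epithelial cells together. N-cadherin, from Cdh2, and vimentin, from Vim, are textbook marks of the mesenchymal state. In the mammary gland, p63 from Trp63, Slug from Snai2 and P-cadherin from Cdh3 are known for the basal layer, which surrounds the luminal cells.

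Levels are log2 values as the authors deposited them, and none lies under 3.32, the log2 of 10, so linear levels below 10 were set to that floor. From 44.8% to 48.0% of probe sets lay at the floor on an array. Where a value at the floor is compared with a measured value, the fold is written as "at least", and no fold is given where both are at the floor. No group has a replicate, so no difference below has a replicate error or a test. A gene was counted as higher or lower when its level differed 2-fold or more, a log2 difference of 1. A level was not read as more or less RNA than that of another probe set. As a scale for array noise, the dox difference in Sca1+ minus that in Sca1- cells was taken in the 500 genes nearest in mean level to each member. The 95th percentile of its absolute value ran from 0.46 near Vim to 1.30 near Zeb2, and it holds true differences between the fractions as well as noise.

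The labels were checked on other genes. The main Bcl11b probe set read 6.87 in untreated and 12.11 in dox Sca1+ cells, and 6.29 and 11.99 in Sca1- cells, while its 3 other probe sets were lower with dox or at the floor. Of 8 basal mammary markers, 7 passed the filter on low levels, with Myh11, a smooth-muscle myosin, at the floor on all arrays. Of 10 luminal markers with a probe set, 9 passed, with Krt19 at the floor on all arrays. The summed linear level of the luminal markers was 4178 in untreated Sca1+ and 8661 in untreated Sca1- cells, and 2386 and 4111 with dox. The basal sum was 9014 in untreated Sca1+ and 6999 in untreated Sca1- cells, and 5617 and 5843 with dox. Ptprc, Cd3e, Cd79a and Itgam of the leukocyte markers, and Cdh5, Tek, Tie1 and Emcn of the endothelial markers, were at the floor on every array. The gene for Sca1 was not analysed here, so the fractions follow the labels. In sorted bulk RNA, fewer cells of a type and less RNA per cell cannot be told apart.

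With dox, the mesenchymal genes among the 10 went apart. By the main probe sets, Zeb1 was higher and Cdh2 and Cdh3 were lower in both fractions, and Cdh1 stayed within 1.27-fold. Vim was 2-fold or more higher in Sca1+ cells only by its main probe set, and in Sca1- cells too by 1456292_a_at (2.16-fold). In Sca1+ cells, dox came with a 2-fold or larger increase in 2 of the 10 genes (Zeb1 and Vim) and decrease in 3 (Cdh2, Cdh3 and Twist1). Over all 12264 genes analysed, 8.47% were higher and 12.9% lower by that rule. In Sca1- cells, Zeb1 was higher and Cdh2 and Cdh3 were lower, where 7.20% of all genes were higher and 11.3% lower. The comparisons in the fractions share no array. In both, 1 member was higher (5.29% of all genes) and 2 were lower (8.56% of all genes). The median dox difference over the 9 members past the filter on low levels was 0.10 in Sca1+ and 0.15 in Sca1- cells, against 0.03 and 0.02 over all genes. Snai1 did not pass the filter, and Zeb1 passed it by its dox arrays alone. Aligning the arrays on their overall medians, which lie close to the floor, shifts the Sca1+ dox differences by 0.19 and moved the share of higher genes among all called from 39.7% to 27.3%. It moved no member across the 2-fold line in the dox comparisons.

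**Figure D1:**
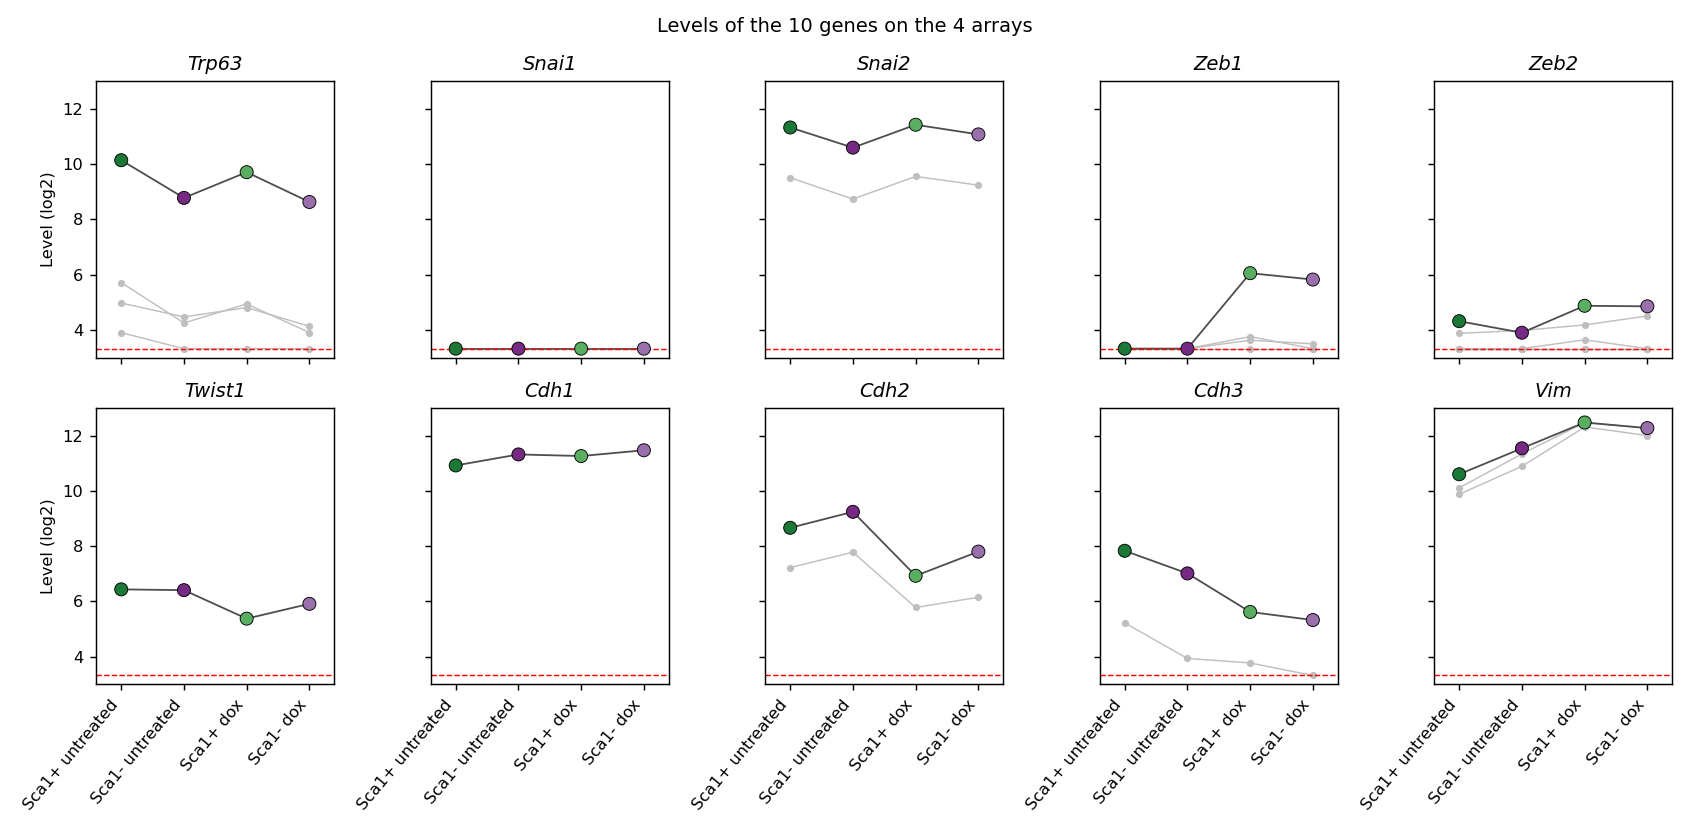
Log2 level of each gene on the 4 arrays (1 array per group). Large coloured points are the main probe set and small grey points the other probe sets; lines join the arrays of a probe set and imply no order, and the dashed red line is the floor at 3.32. Zeb1 leaves the floor only on the dox arrays, the Cdh2 and Cdh3 main probe sets are lowest there, and Vim is highest there.

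Among the Zeb factors, which pair clusters of zinc fingers at either end of the protein with a homeodomain-like region, Zeb1 was at the floor on both untreated arrays by all 4 of its probe sets. Its main probe set, 1418926_at, read 6.05 in dox Sca1+ and 5.82 in dox Sca1- cells. The level was thus higher with dox by at least 6.63-fold in Sca1+ and by at least 5.65-fold in Sca1- cells, and the dox arrays differed from each other by 0.23. The other probe sets showed little of this: 1446127_at read 3.63 and 3.50 with dox, 1443005_at read 3.76 in dox Sca1+ cells only, and 1420243_at stayed at the floor. With the probe sets averaged, the Zeb1 dox difference was 0.87 in Sca1+ and 0.67 in Sca1- cells, below the 2-fold line. With their median taken, it was 0.37 and 0.09. With values under a linear level of 32 set to 32, it was 1.05 and 0.82.

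Zeb2, the paralogue of Zeb1, lay close to the floor. Its main probe set, 1422748_at, read 4.31 in untreated Sca1+, 3.90 in untreated Sca1-, 4.87 in dox Sca1+ and 4.85 in dox Sca1- cells. Both dox arrays were above both untreated arrays, by 0.56 in Sca1+ and 0.95 in Sca1- cells, short of 2-fold. The next probe set, 1456389_at, also read higher with dox, by 0.30 and 0.52. Of the other 3 Zeb2 probe sets, 2 were at the floor on all arrays and 1 on 3 arrays. Around the mean level of Zeb2 the noise scale above is wide, but it is taken on a difference of dox differences, not on a single one. Of the 500 genes nearest to Zeb2 in mean level, 45% had an absolute dox difference at least as large in Sca1+ cells. In Sca1- cells 20.4% did.

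Of the Snail factors, Snai1, which encodes Snail, was at the floor on all 4 arrays by its only probe set, 1448742_at, so these arrays give no level or difference for it. Snai2 was bright on every array and differed little with dox. Its main probe set, 1447643_x_at, read 11.32 in untreated Sca1+, 10.59 in untreated Sca1-, 11.42 in dox Sca1+ and 11.07 in dox Sca1- cells. The Sca1+ arrays were the highest pair. Its second probe set, 1418673_at, ran the same way, at 9.50, 8.73, 9.55 and 9.23 in that order. The letter x in a probe set's name marks probes that can also match other transcripts, and the second probe set carries no such mark. The Snai2 dox difference was 0.10 in Sca1+ and 0.48 in Sca1- cells by the main probe set, and 0.05 and 0.50 by the second. The difference in Sca1+ cells turned to -0.09 with the arrays aligned on their overall medians.

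Twist1, a basic helix-loop-helix factor, was lower with dox by the 2-fold rule in Sca1+ cells and did not pass it in Sca1- cells. Its single probe set, 1418733_at, read 6.44 in untreated Sca1+, 6.41 in untreated Sca1-, 5.38 in dox Sca1+ and 5.91 in dox Sca1- cells. The untreated arrays lay within 0.03 of each other and above both dox arrays. With dox, Twist1 was 2.08-fold lower in the Sca1+ and 1.41-fold lower in the Sca1- fraction. The 95th percentile of the noise scale near its level was 1.01, but that scale is a difference of dox differences, not a single one. Of the 500 genes nearest to Twist1 in mean level, 24.6% had an absolute dox difference at least as large in Sca1+ cells (-1.06 for Twist1). In Sca1- cells 47.6% did.

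Trp63, whose product maintains basal and stratified epithelia, changed little with dox. Its main probe set, 1418158_at, read 10.14 in untreated Sca1+, 8.77 in untreated Sca1-, 9.70 in dox Sca1+ and 8.63 in dox Sca1- cells. The dox difference was -0.43 in Sca1+ and -0.15 in Sca1- cells. All 4 Trp63 probe sets were lower with dox in Sca1+ cells, by log2 differences from -0.77 to -0.16, and none reached 2-fold. Which p63 isoforms the probe sets read is not given in the annotation.

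Among the cadherins, Cdh1 was bright on all arrays by its single probe set, 1448261_at. It read 10.92 in untreated Sca1+, 11.32 in untreated Sca1-, 11.26 in dox Sca1+ and 11.47 in dox Sca1- cells. The dox difference was 0.34 in Sca1+ and 0.15 in Sca1- cells, which is 1.27-fold and 1.11-fold higher. The whole range over the 4 arrays was 0.55, the smallest among the 8 members above the floor on all arrays. On the arrays where the main Zeb1 probe set left the floor, Cdh1 was not lower than on the untreated array of the same fraction. Whether Zeb1 acts on Cdh1 in these cells was not tested.

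Cdh2 was lower with dox by both of its probe sets. The main one, 1418815_at, read 8.66 in untreated Sca1+, 9.24 in untreated Sca1-, 6.93 in dox Sca1+ and 7.80 in dox Sca1- cells. Both dox arrays lay below both untreated arrays. The decrease with dox was 3.33-fold in Sca1+ and 2.71-fold in Sca1- cells. The second probe set, 1449244_at, read 7.22, 7.78, 5.78 and 6.15 in the same order, or 2.72-fold and 3.10-fold lower. The fraction with the larger difference thus depended on the probe set.

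Cdh3 was also lower with dox. Its main probe set, 1426673_at, read 7.83 in untreated Sca1+, 7.01 in untreated Sca1-, 5.62 in dox Sca1+ and 5.33 in dox Sca1- cells. The untreated arrays were both higher than the dox arrays, and Sca1+ was above Sca1- in each treatment. The decrease with dox was 4.63-fold in Sca1+ and 3.22-fold in Sca1- cells. By its dimmer probe set, 1441255_at, it was 2.73-fold in Sca1+ and at least 1.53-fold in Sca1- cells, where the value met the floor.

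Vim had the largest gap between the fractions in its dox difference among the main probe sets of the 10 genes. Its main probe set, 1438118_x_at, read 10.60 in untreated Sca1+, 11.54 in untreated Sca1-, 12.47 in dox Sca1+ and 12.27 in dox Sca1- cells. The dox arrays were above both untreated arrays and close to each other, and untreated Sca1+ was the lowest. The increase of Vim with dox was 3.66-fold in the Sca1+ and 1.66-fold in the Sca1- fraction. The probe sets 1450641_at and 1456292_a_at gave 5.14-fold and 5.41-fold in Sca1+ cells, and 1.91-fold and 2.16-fold in Sca1- cells.

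The dox difference of Vim in Sca1+ minus that in Sca1- cells was 1.14 by the main probe set and 1.43 and 1.32 by the others. It was the only member past 2-fold in this comparison, where 3.69% of all genes were past 2-fold in that direction and 3.44% in the other. Of the 500 genes nearest to Vim in level, 0.2% had an absolute value at least as large. With the arrays aligned on their overall medians, the main probe set of Vim gave 0.91, short of 2-fold. Its name carries the letter x, those of the others do not, and the others were not read under this alignment. Under it the share of higher genes among all called moved from 51.7% to 24.7%. Aligning on the brighter probe sets moved that share to 62.7%. The highest values on the dox Sca1+ and Sca1- arrays were 12.76 and 12.64, so Vim read close to the top of the scale there. Whether a ceiling of the scale held the dox levels of Vim together was not tested.

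**Figure D2:**
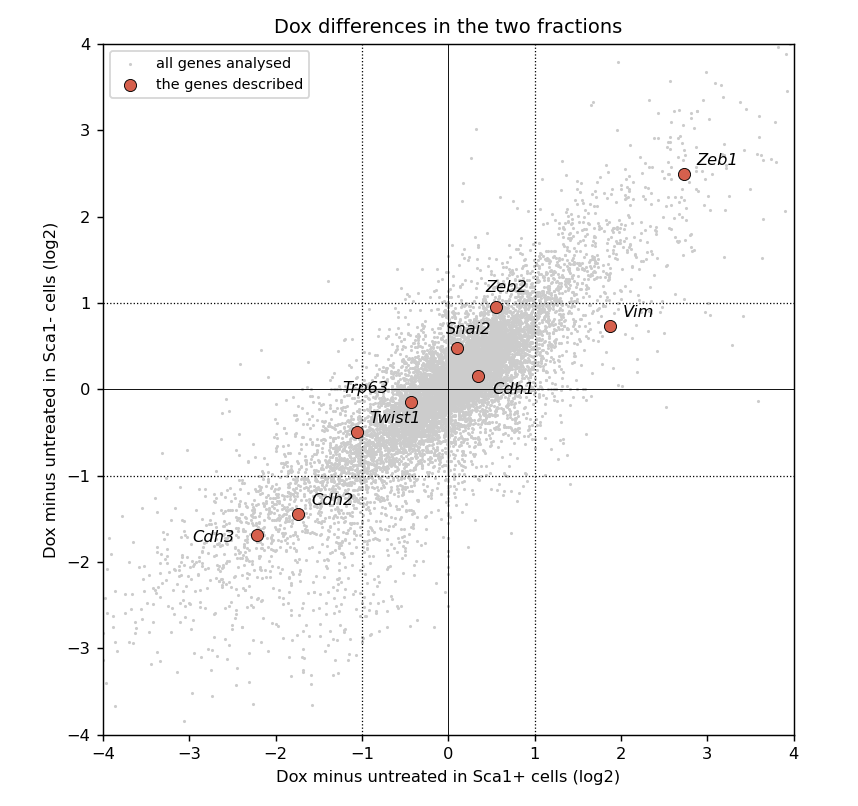
Dox difference (log2) in Sca1+ cells on the horizontal axis and in Sca1- cells on the vertical axis. Grey points are the 12264 genes analysed, of which 66 lie beyond the axes; red points are the 9 members past the filter, each by its main probe set, and dotted lines mark 2-fold. Cdh2 and Cdh3 lie in the lower left corner, Zeb1 in the upper right (its values are lower bounds), and Vim lies below the main cloud at 1.87 and 0.73.

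The deposited table holds no promoter reading, but E-boxes are the known sites of these factors. By their main probe sets, Vim and Twist1 passed 2-fold with dox in Sca1+ cells alone, in opposite directions, and Snai1 was at the floor throughout. The sequences before the start sites of these 3 members, which behaved differently, are shown. They are the 250 bases before the start, 5′ to 3′ on the gene's strand, from RefSeq on GRCm38.p6. Capitals mark the E-box preferred by Snail and Zeb factors (CACCTG or CAGGTG, which covers both strands) and the TATA motif (TATAAA or TTTATA, both strands). Vim lies at chr2:13574061-13574310, Twist1 at chr12:33957421-33957670 and Snai1 at chr2:167537945-167538194, all on the plus strand.
Vim: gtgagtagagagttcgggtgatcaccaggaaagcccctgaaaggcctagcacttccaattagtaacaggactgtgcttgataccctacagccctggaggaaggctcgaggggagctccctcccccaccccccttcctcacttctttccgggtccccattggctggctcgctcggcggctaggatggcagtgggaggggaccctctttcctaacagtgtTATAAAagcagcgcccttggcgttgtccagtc
Twist1: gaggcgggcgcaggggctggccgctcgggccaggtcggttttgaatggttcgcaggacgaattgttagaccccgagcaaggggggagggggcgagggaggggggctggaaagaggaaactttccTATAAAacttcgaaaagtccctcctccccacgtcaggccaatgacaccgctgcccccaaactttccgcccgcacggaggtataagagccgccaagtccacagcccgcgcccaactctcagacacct
Snai1: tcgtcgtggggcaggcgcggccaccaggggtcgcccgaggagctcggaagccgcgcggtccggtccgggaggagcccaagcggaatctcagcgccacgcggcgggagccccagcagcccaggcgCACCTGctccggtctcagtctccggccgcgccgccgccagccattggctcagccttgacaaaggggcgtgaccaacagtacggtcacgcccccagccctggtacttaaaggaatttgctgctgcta

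The Snai1 window holds 1 such E-box, whose first base lies 126 bases before the start, and neither the Vim nor the Twist1 window holds one. The search covered the printed 250 bases. Of 32536 distinct windows of the same length in the table, 17.3% hold CACCTG or CAGGTG. The wider E-box CANNTG, which includes both of these, is in 66.2% of all windows and was not found in the Vim or Twist1 window. A TATA motif begins 32 bases before the start in Vim and 126 bases before it in Twist1, and 12.3% of all windows hold one. The promoter table had entries for 4 of the 10 genes, the fourth being Zeb2, whose 4 windows hold no CANNTG. These matches are letters in a window and say nothing of binding.

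Between the fractions, Trp63 was the 1 member whose main probe set was higher in Sca1+ cells by 2-fold or more, and it did so in each treatment. Without dox the main probe set was 2.57-fold higher in Sca1+ cells, and 3.07% of all genes were at least 2-fold higher. With dox it was 2.11-fold higher, where 2.52% of all genes were. In both treatments together, 1.08% of all genes were higher and 0.881% lower by this rule. By the main probe sets no member was 2-fold lower in Sca1+ cells in either treatment, against 3.33% of all genes without dox and 2.98% with dox. Without dox this rested on the probe set for Vim, whose main one was 1.92-fold lower and the other 2 past 2-fold. The Trp63 probe set 1452027_a_at gave 2.75-fold and 2.05-fold, and 1459581_at a smaller 1.42-fold and 1.60-fold. The dim probe set 1451876_a_at was above the floor in untreated Sca1+ cells alone, at 3.90. With the probe sets averaged, the Trp63 difference was 0.98 without and 0.70 with dox, short of 2-fold, while Vim (-1.06) and Cdh3 (1.05) passed 2-fold without dox.

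Other basal-layer genes among the members leaned the same way by less. Snai2 was 1.66-fold higher in Sca1+ cells without dox and 1.27-fold with dox, and its second probe set gave 1.71-fold and 1.24-fold. Cdh3 was 1.76-fold and 1.23-fold higher, and its dimmer probe set 2.44-fold and at least 1.37-fold. None of these differences of the main probe sets reached 2-fold. Alignment on the overall medians adds 0.22 to each difference of the untreated arrays, which put Cdh3 at 1.04. The basal mammary markers leaned this way by their median without dox but not with dox, at 0.49 and -0.06. Without dox, Krt5 (0.70), Krt17 (0.69), Itga6 (0.62), Oxtr (0.49, near the floor) and Krt14 (0.23) were higher in Sca1+ cells. Acta2 (-0.29) and Mme (-2.10) were lower. Of the 7 past the filter, none was 2-fold higher in Sca1+ cells in either treatment.

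Cdh2 leaned towards the Sca1- cells, and Cdh1 did so without dox. Cdh2 was 1.49-fold lower in Sca1+ cells without dox and 1.83-fold lower with dox by its main probe set, and 1.47-fold and 1.29-fold lower by the second. Cdh1 was 1.32-fold lower without dox and 1.16-fold lower with dox. Luminal markers were lower in Sca1+ cells as well. Of the 9 past the filter, 7 were at least 2-fold lower without dox and 4 with dox, against 3.33% and 2.98% of all genes. Their part in the cadherin differences was not tested.

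Vim differed between the untreated fractions, and with dox it had no clear order. Without dox it was lower in Sca1+ cells, by 1.92-fold with the main probe set and by 2.34-fold and 2.02-fold with the others. With dox it was 1.15-fold higher in Sca1+ cells by the main probe set, 1.15-fold and 1.24-fold by the others. Twist1 was level between the untreated fractions, at a difference of 0.03, and 1.45-fold lower in Sca1+ cells with dox. Zeb1 was at the floor in both untreated fractions and 1.17-fold higher in Sca1+ cells with dox, and Zeb2 was 1.34-fold higher without and 1.01-fold with dox. The median difference between the fractions over the 9 members was 0.03 without and 0.20 with dox, against -0.01 and -0.03 over all genes.

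**Figure D3:**
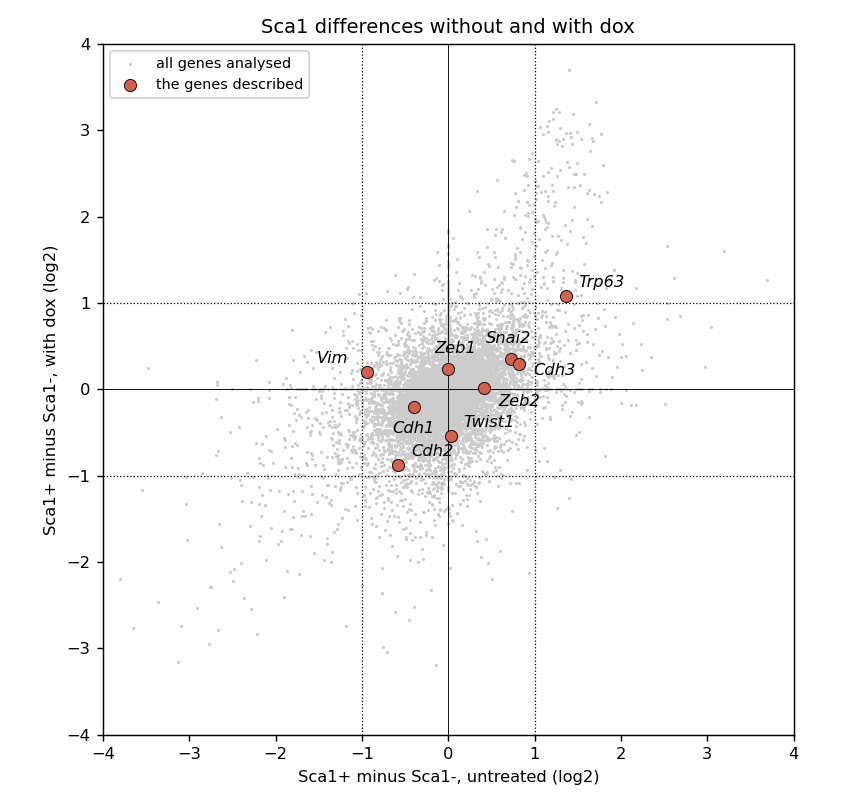
Sca1+ minus Sca1- difference (log2) without dox on the horizontal axis and with dox on the vertical axis. Grey points are the 12264 genes analysed, of which 3 lie beyond the axes; red points are the 9 members past the filter by their main probe sets, and dotted lines mark 2-fold. Trp63 alone lies beyond 2-fold in both treatments, at 1.36 and 1.08, and Vim lies left of the main cloud at -0.94 and 0.20.

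The order of the arrays within a gene fell into a few shapes. For Cdh2, untreated Sca1- was highest and dox Sca1+ lowest; for Cdh3, untreated Sca1+ was highest and dox Sca1- lowest. For Trp63 both Sca1+ arrays were above both Sca1- arrays, and for Snai2 the same held. For Vim, Zeb1 and Zeb2 both dox arrays were above both untreated arrays. Some neighbours in these orders lay within 0.3 of each other and have no clear order: the dox arrays of Cdh3, Vim, Zeb1 and Zeb2, the untreated arrays of Twist1 and the Sca1- arrays of Trp63. For Snai2 this held for the Sca1+ arrays and for untreated Sca1+ and dox Sca1-, and for Cdh1 for every array but untreated Sca1+.

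Genes with the nearest pattern over the 4 arrays were sought for the 3 members of widest range among those above the floor throughout, by Euclidean distance of levels centred on each gene's mean, among 10260 other genes. Nearest to Cdh3 were Efs, at a distance of 0.06, and Msx1, at 0.12. Nearest to Cdh2 were Slc9a3r1, at 0.04, and Rbpms, at 0.15. Nearest to Vim were Mindy2, at 0.15, and Lama4, at 0.18. Within a distance of 0.5 lay 50 genes for Cdh3, 159 for Cdh2 and 77 for Vim, so with 4 arrays a close pattern is common.

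Related genes were described from lists. Over all genes, 5.29% were higher and 8.56% lower with dox by 2-fold or more in both fractions. These shares stand beside every such count below. In lists this short, a few genes past 2-fold, or none, is not read as a trait of the list. Of 14 adherens junction partners, which link cadherins to the cytoskeleton or to neighbouring cells, all passed the filter. With dox, 2 were higher by 2-fold or more in both fractions and none lower. These were Pvr, a nectin-like adhesion receptor (1.17 in both fractions), and Vcl, vinculin, an actin linker (1.02 and 1.10). The second Vcl probe set had a smaller mean dox difference of 0.56, and those of the other Pvr probe sets ran from 0 to 1.58. Here and below, a mean difference of exactly 0 is what a probe set at the floor on all arrays gives. It is not read as a measured lack of change. The E-cadherin partners Ctnna1 (0.17 and 0.03), Ctnnb1 (0.16 and -0.16) and Ctnnd1 (0.30 and 0.40) stayed within 2-fold, like Cdh1 itself. Of the 12 partners not past 2-fold in both fractions, 6 had positive and 4 negative dox differences in both, and 2 had mixed signs. The median of the mean dox differences over the list was 0.15.

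Of 12 other cadherins with a probe set, 6 were at the floor on all arrays, among them the mesenchymal cadherin gene Cdh11 and the endothelial Cdh5. Of the 6 past the filter, 2 were lower with dox in both fractions and none higher. Pcdh1, a protocadherin of epithelia, was lower by at least 3.61-fold in Sca1+ and by at least 5.54-fold in Sca1- cells. Cdh13, a cadherin anchored by lipid instead of a membrane-spanning segment, was 2.12-fold and 3.31-fold lower, with its other probe sets at mean dox differences from -1.33 to 0.

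Of 12 epithelial identity regulators past the filter, 3 were lower with dox in both fractions (8.56% of all genes) and none higher (5.29%). Their median was -0.63. Ovol2, known as a repressor of Zeb1, read 6.12 and 5.78 in untreated Sca1+ and Sca1- cells and 4.78 and 4.72 with dox, or 2.54-fold and 2.08-fold lower. The luminal progenitor factor gene Elf5 was at least 2.86-fold and 3.98-fold lower, and the Ets factor gene Ehf 2.45-fold and 2.78-fold. Second readings were weaker: the other Elf5 probe set had a mean dox difference of -0.09, and those of the other Ehf probe sets ran from -1.26 to 0. Of the other 9 regulators, 6 had negative and 2 positive dox differences in both fractions, and Grhl3 had mixed signs. Grhl2, an activator of Cdh1, had dox differences of -0.79 and -0.44, and Esrp1, an epithelial splicing regulator, of -0.47 and -0.37. The positive ones were Klf5, a Krüppel-like zinc-finger factor (0.73 and 0.75), and Esrp2, the paralogue of Esrp1 (0.05 and 0.36). Elf5 and Ehf were also the 2 genes of the list lower in Sca1+ than in Sca1- cells in both treatments, Elf5 by 4.52-fold without and at least 3.25-fold with dox, and Ehf by 2.47-fold and 2.18-fold.

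Of 12 other EMT regulators past the filter, 2 were higher and 1 was lower with dox in both fractions, with a median of 0.20. Snai3, the third Snail gene, read 3.93 and 4.44 in untreated Sca1+ and Sca1- cells and 6.46 and 7.26 with dox, which is 5.77-fold and 7.02-fold higher. Its other probe set had a mean dox difference of 0.95. Hmga2, a chromatin protein that acts upstream of Snail factors, was 5.98-fold and at least 3.63-fold higher, with its other probe sets from 0 to 1.45. Foxc1, a forkhead factor, was 4.24-fold and 2.06-fold lower, and its second probe set had a mean difference of -1.78. Twist2, Prrx1, Prrx2 and Gsc were at the floor on all arrays.

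Of 14 mesenchymal EMT targets past the filter, 2 were higher and 3 lower with dox in both fractions, with a median of 0.03. Lox, a collagen cross-linking enzyme, was 7.35-fold and 9.33-fold higher, with its other probe sets at mean differences from 0 to 2.17. The fibronectin gene Fn1 was the other higher gene, with dox differences of 2.19 and 1.09; the limit of 4 named genes for this list left it out, and it was added after its values were seen. The receptor kinase gene Axl was 10.5-fold and 5.11-fold lower, the smooth-muscle actin gene Acta2 7.30-fold and 8.55-fold lower, and the matrix protein gene Postn 8.29-fold and 3.21-fold lower. Acta2 is also among the basal mammary markers above. The other probe sets of Axl and Acta2 had a mean difference of exactly 0, the value given by probe sets at the floor on all arrays, so they are no check. Sparc, a matrix protein gene, was higher in Sca1+ cells in both treatments, by 4.51-fold and 2.26-fold, with its other probe sets from -0.14 to 1.79.

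Of 20 p63 target genes with a probe set, all passed the filter, 4 were lower with dox in both fractions and none higher, while Trp63 itself stayed within 2-fold. They were Bnc1, basonuclin, a basal-cell zinc-finger factor (46.9-fold and 8.46-fold lower), the basal keratin gene Krt5 (15.9-fold and 8.76-fold), the hemidesmosome integrin gene Itgb4 (4.05-fold and 2.70-fold) and the Notch ligand gene Jag2 (3.66-fold and 2.56-fold). The other 16 targets were mixed: 6 had positive and 5 negative dox differences in both fractions, and 5 had opposite signs. Among the positive ones, the dox differences of Krt14 were 0.10 and 0.38, of Col17a1 0.52 and 0.92, and of Dsp 0.34 and 0.36. Among the negative ones, those of Pkp1, a desmosome plakophilin gene, were -1.41 and -0.89. The median over the list was -0.11. Krt5, Krt14 and Itga6 are also among the basal mammary markers, so these lists are not separate readings. Without dox, 3 of the 20 favoured Sca1+ cells by 2-fold or more and none Sca1- cells, and with dox none favoured Sca1+ and 1 Sca1- cells. Over all genes, 3.07% favoured Sca1+ and 3.33% Sca1- cells without dox, and 2.52% and 2.98% with dox.

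**Figure D4:**
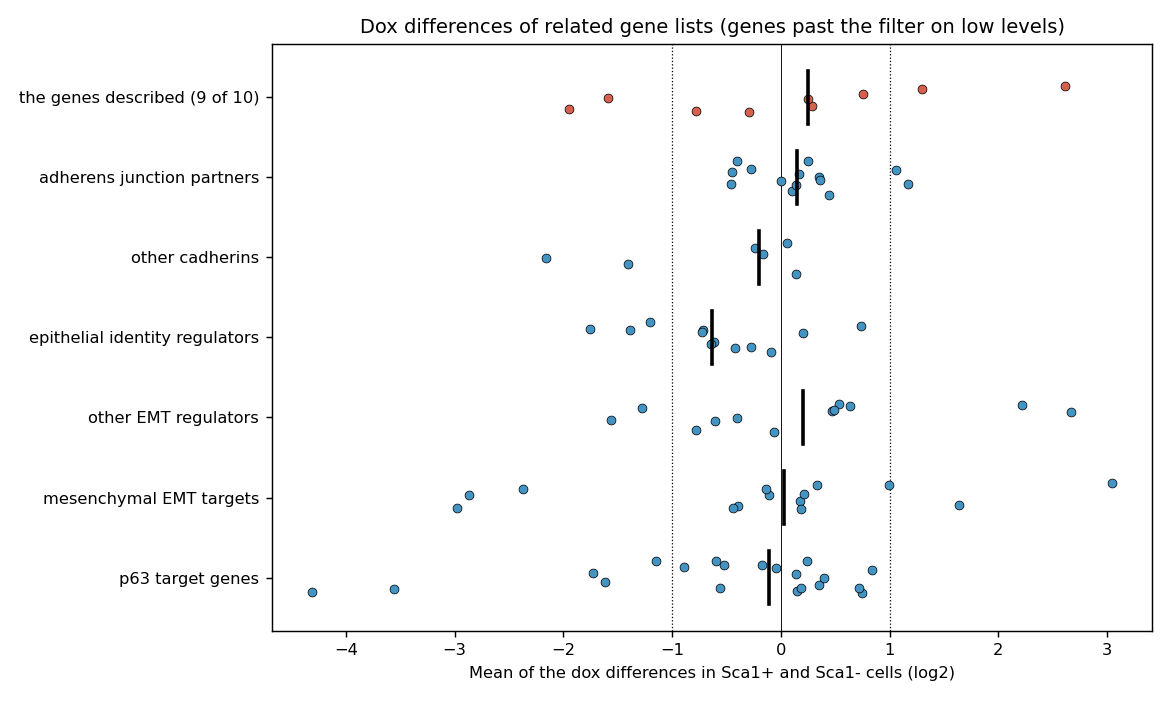
Mean of the dox differences (log2) in Sca1+ and Sca1- cells for genes past the filter on low levels, by list. Each point is a gene by its main probe set, the thick bar is the list's median, and dotted lines mark 2-fold. The 9 members spread from -1.95 to 2.61, and the epithelial identity regulators have the lowest median, -0.63.

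Of the 9 fibroblast markers, 4 passed the filter, and 1 was higher with dox by 2-fold or more in both fractions (5.29% of all genes). The summed linear level of the 9 fibroblast markers was 98.9 and 115 on the untreated Sca1+ and Sca1- arrays and 778 and 444 on the dox arrays, where 90 would be the sum with every gene at the floor. The higher sum lay mostly in Dcn, decorin, which read 9.41 and 8.42 with dox and was at the floor without it. The defining fibroblast genes Col1a1, Col3a1 and Pdgfrb were at the floor on all 4 arrays, and Col1a2 reached only 3.53. Pdgfra, which passed the filter, was lower with dox, by differences of -0.13 in Sca1+ and -0.69 in Sca1- cells. Lum, at the floor without dox, had differences of 0.30 and 0.82. Thy1 left the floor only in dox Sca1+ cells, at 4.08. The sum of the 7 leukocyte markers was 70.3 and 73.7 untreated and 135 and 132 with dox, mostly from Cd68 at 6.16 on both dox arrays, with 4 of the 7 at the floor on all arrays. The part of either in the Zeb1 and Vim differences was not tested.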

How the data were processed

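RNA from 4 groups was labelled by an Affymetrix 3' IVT protocol from 50 to 500 ng, per the labels, and 1 array per group was hybridised. The authors deposited log2 levels for 45101 probe sets; how they summarized and scaled the arrays is not stated in the labels. Levels were used as deposited, with no further normalization. The platform annotation pairs 34958 probe sets with 1 gene symbol, and symbols were updated by gene identifier through a mouse gene table. Each gene was read by its probe set of highest mean, and 12264 genes whose highest level reached the median of the whole table (3.63) were analysed. Differences were counted at 2-fold, with no test, since each group has 1 array. The call rule was run on simulated data with 200 changed genes, all set past 2-fold, and with the same noise for every gene. This checks the calculation and gives no error rate for calls on these arrays. The members and lists were chosen with earlier results of these data known. Named genes were all members; from each list, up to 4 genes past 2-fold in both dox comparisons and up to 2 in both Sca1 comparisons, by mean difference; and 2 nearest patterns for 3 members. Other listed genes given with values were added after these were seen. Alternatives covered centring, averaging probe sets, filters, a stricter floor and the size rule. Python 3.11.15, pandas 2.3.3 and numpy 2.4.6 were used.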

Additional observations from a re-analysis of the deposited data

Results flagged for a closer look

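Among the main probe sets measured on all 4 arrays, the Sca1+ minus Sca1- difference had opposite signs without and with dox for Vim and Twist1. For Vim it was -0.94 without and 0.20 with dox, and all 3 Vim probe sets, which read the same RNA, had these signs. The 0.20 lies within the 0.3 taken above as no clear order, so a turn is not established. For Twist1 it was 0.029 without and -0.54 with dox, and the first of these is close to 0. The differences between treatments were not tested, since each group has 1 array. No member had dox differences of opposite sign in the Sca1+ and Sca1- fractions by a main probe set above the floor.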

How the results depend on the processing

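No alternative reversed the sign of a member difference that was past 2-fold. In Sca1+ cells, 5 members were past 2-fold with dox, and 3 among the 6 left by a filter at a linear level of 100. In Sca1- cells the count went from 3 to 5 with a 1.5-fold rule. For untreated Sca1+ against Sca1- cells it went from 1 to 2 with the arrays centred on the median of all probe sets, where Cdh3 joined Trp63, to 4 at 1.5-fold and to 0 at 3-fold. With probe sets averaged or their median taken it was also 2, but other members: Trp63 dropped out (0.98 by both), and Cdh3 (1.05 by both, higher) and Vim (-1.06 and -1.23, lower) came in. With dox it went from 1 to 0 with probe sets averaged or their median taken, to 2 at 1.5-fold and to 0 at 3-fold. In both treatments together, 1 became 0 with probe sets averaged or their median taken and at 3-fold. The difference between the dox differences went from 1 to 0 at 3-fold and with centring on all probe sets. The other member counts stayed within 1.5 times, but 2 of them lost Zeb1, the only member higher with dox in both fractions. For dox in Sca1- cells, 3 became 2 with probe sets averaged or their median taken. The floor at a linear level of 32 and the filter at 100 did the same. In each of these settings the count for dox in both fractions also went from 3 to 2. Over all genes and comparisons, 1.96% to 21.4% were called at 2-fold, 5.75% to 39.9% at 1.5-fold and 0.44% to 9.87% at 3-fold. With the stricter floor the Sca1 shares were 3.74% without and 2.94% with dox and 1.25% in both, against 6.39%, 5.50% and 1.96%, and that of the difference of dox differences 3.34% against 7.13%. The filter at 100 left 1621 of 2620 called genes for dox in Sca1+, 1423 of 2266 in Sca1-, 400 of 784 for Sca1 without dox, 432 of 675 with dox and 371 of 874 for the difference of dox differences. That centring changed the proportion of higher calls from 48.0% to 70.0% for the untreated Sca1 comparison and from 55.0% to 65.8% for both treatments. The causes were not tested, other than fewer genes under the stricter filter. No replicate numbers pair the arrays. An additive model of dox and Sca1 over the 4 arrays, with the gap between the fractions in the dox difference as its only error term, could be fitted but was not run, since the labels do not say which fractions share a flask. No array could be left out of a group of 1. The floor limits Snai1, Zeb1 and Zeb2 most.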
